A study of Homo sapiens with 4 samples.

Results

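The genes described here are 4 matrix proteins (SPARC, FN1, COL1A1 and EMILIN2), 2 integrin beta subunits (ITGB4 and ITGB1) and 4 integrin alpha subunits (ITGA4, ITGA5, ITGA6 and ITGAV). They are 10 of the 28482 genes in the table and were found by gene name. They were chosen by their counts in these libraries: SPARC was higher and ITGB4 lower with knockdown of TCF7, and FN1 was higher with knockdown mainly under imatinib. Knockdown values of these genes are therefore given as a description, with no test.

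RNA was sequenced from K562/G01 cells, a derivative of the chronic myeloid leukemia line K562 that resists imatinib, the inhibitor of the BCR-ABL1 kinase. All cells carried a lentiviral vector, with a short hairpin RNA against TCF7 or with a scramble hairpin, and each was given 1 µM imatinib for 48 hours or left without it. The groups are TCF7 knockdown with imatinib, scramble with imatinib, TCF7 knockdown and scramble, with 1 library each. The labels name 1 vector against TCF7 and leave unsaid if infection and treatment were repeated for each culture, so a lasting difference between the infected cultures and an effect of TCF7 cannot be told apart.

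Integrins are cell surface receptors made of an alpha and a beta subunit, and the pair decides which matrix protein is bound. ITGB1 pairs with ITGA4, ITGA5, ITGA6 or ITGAV, whereas ITGB4 is known to pair with ITGA6. Fibronectin, the product of FN1, is a ligand of the pairs ITGA5/ITGB1 and ITGA4/ITGB1, by which blood progenitors hold on to bone marrow stroma.

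Libraries held 30634832 to 34095585 counts. Of the 14 K562 and erythroid markers searched, 14 passed the expression filter of at least 1 CPM (counts-per-million) in 2 libraries or more, with TFRC and HBE1 the most abundant. TCF7, the targeted gene (ENSG00000081059.19; GRCh38 chromosome 5, 134114711 to 134151865), had 3.69 CPM in knockdown cells with imatinib, 10.8 CPM in scramble cells with imatinib, 2.55 CPM in knockdown cells and 10.2 CPM in scramble cells. Both knockdown libraries were below both scramble libraries, at 35.1% (95% counting interval 27.9% to 42.8%) of the scramble level under imatinib and 25.5% (19.3% to 32.1%) without it. The difference of the log2 ratios of knockdown over scramble, under minus without imatinib, was 0.46 (-0.004 to 0.93). SKP1, on the opposite strand, shares 210 exon bases with TCF7 and had 5201 to 6085 counts per library. The part of this overlap in the TCF7 counts was not tested.

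The promoter windows of SPARC and FN1, the matrix genes with the most counts, are shown because TCF7 binds DNA and these genes differed with its knockdown. Each is the 250 bases before the RefSeq start (GRCh38.p14), 5′ to 3′ on the gene's strand, chr5:151686916-151687165 (minus strand) for SPARC and chr2:215436069-215436318 (minus strand) for FN1. Capitals mark matches on either strand to the TCF/LEF cores CTTTGAT and CTTTGTT, to the palindrome TGACGTCA, or to the shorter motifs CCAAT, then TATAA and then GGAGGA.
SPARC: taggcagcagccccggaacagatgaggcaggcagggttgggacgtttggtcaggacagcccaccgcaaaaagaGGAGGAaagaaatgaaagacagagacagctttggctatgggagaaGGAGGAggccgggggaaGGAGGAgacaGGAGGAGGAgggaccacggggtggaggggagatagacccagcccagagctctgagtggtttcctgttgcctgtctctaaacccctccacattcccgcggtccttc
FN1: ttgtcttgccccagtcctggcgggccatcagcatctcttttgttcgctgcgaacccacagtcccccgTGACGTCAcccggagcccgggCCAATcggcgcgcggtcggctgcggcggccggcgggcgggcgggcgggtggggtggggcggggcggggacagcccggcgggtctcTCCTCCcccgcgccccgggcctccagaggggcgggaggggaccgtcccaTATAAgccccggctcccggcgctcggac
SPARC holds 5 copies of GGAGGA, of which the pair nearest to the start overlaps; 31.8% of the 35116 windows of this length hold at least 1 copy. FN1 holds TGACGTCA, the palindromic element bound by CREB-family factors (1.65% of windows), at -183 to -176 from the start, CCAAT (32.0%) at -162 to -158 and TATAA (18.9%) at -28 to -24, and GGAGGA on the other strand. The TCF/LEF cores, searched in the full 300-base windows that run 50 bases past the start, were found in 0 of the 8 members with a window and in 7.61% of all windows. These letters say nothing about binding elsewhere in the genes. All motifs except the TCF/LEF cores were chosen after the windows had been read.

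SPARC (ENSG00000113140.10; GRCh38 chromosome 5, 151661096 to 151687165), a secreted collagen-binding glycoprotein that also occurs in platelet granules, followed the hairpin and hardly the drug. It had 23.9 CPM in knockdown cells with imatinib, 6.69 CPM in scramble cells with imatinib, 25.1 CPM in knockdown cells and 6.70 CPM in scramble cells. Both knockdown libraries lay above both scramble libraries, and libraries with the same hairpin had overlapping Poisson intervals. The ratio of knockdown over scramble was 3.61-fold (95% counting interval 3.13 to 4.23) under imatinib and 3.74-fold (3.24 to 4.39) without it. The difference of these log2 ratios, under minus without imatinib, was -0.05 (-0.36 to 0.25). An antisense gene, CLMAT3, shares 381 exon bases with SPARC and had at most 4 counts in any library.

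COL1A1 (ENSG00000108821.13; GRCh38 chromosome 17, 50183289 to 50201632), the alpha-1 chain of type I collagen, was near the limit of detection and had the same pattern. It had 32 counts (1.01 CPM) in knockdown cells with imatinib, 7 counts (0.205 CPM) in scramble cells with imatinib, 42 counts (1.37 CPM) in knockdown cells and 5 counts (0.151 CPM) in scramble cells. The ratios were 4.05-fold (2.16 to 13.4) under imatinib and 6.78-fold (3.62 to 29.6) without it. COL1A1 passed the filter only through the knockdown libraries, so it had to be higher there. COL1A2, which encodes the other chain of type I collagen, had 1, 2, 0 and 1 counts in knockdown cells with imatinib, scramble cells with imatinib, knockdown cells and scramble cells, so its level could not be compared at this depth.

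Collagen and SPARC are abundant in fibroblasts, so markers of stromal cells were looked up. Of 11 fibroblast and stromal markers 8 were in the table, and they summed to 4.22 CPM in knockdown cells with imatinib, 4.25 CPM in scramble cells with imatinib, 2.68 CPM in knockdown cells and 3.83 CPM in scramble cells. Of these markers 7 were under 1 CPM in every library, among them DCN, LUM and PDGFRB, and COL6A3 made up most of the sum. Without COL6A3 the other 7 summed to 1.42 CPM in knockdown cells with imatinib, 0.851 CPM in scramble cells with imatinib, 1.31 CPM in knockdown cells and 1.18 CPM in scramble cells, higher in both knockdown libraries. PDGFRB had 14 counts in knockdown cells with imatinib, 9 in scramble cells with imatinib, 22 in knockdown cells and 11 in scramble cells, and DCN had 24, 5, 10 and 16 in the same order. PDGFRA was at 0 counts in every library but scramble, which had 3. Megakaryocyte and platelet markers, a lineage that stores SPARC, summed to 26.8 CPM in knockdown cells with imatinib, 40.4 CPM in scramble cells with imatinib, 25.7 CPM in knockdown cells and 45.6 CPM in scramble cells, most of it TUBB1 and GP6. Without these the other 9 summed to 4.66 CPM in knockdown cells with imatinib, 4.05 CPM in scramble cells with imatinib, 2.58 CPM in knockdown cells and 4.01 CPM in scramble cells. Of these 9, ITGB3 had 72 counts in knockdown cells with imatinib, 33 in scramble cells with imatinib, 42 in knockdown cells and 48 in scramble cells. ITGA2B had 67, 94, 28 and 76 counts in the same order, lower with knockdown in both pairs. The table held 11 of 14 such markers, 4 passed the filter, and GP6, the platelet collagen receptor, and TUBB1, the platelet tubulin, fell with knockdown (edgeR adjusted p = 0.00198 and 3.68e-05). In bulk RNA, fewer cells of a type and less RNA per cell cannot be told apart. Of 9 epithelial markers 6 were in the table, with KRT19 and EPCAM carrying most of a sum of 205 CPM in knockdown cells with imatinib, 174 CPM in scramble cells with imatinib, 185 CPM in knockdown cells and 181 CPM in scramble cells; CDH1 had at most 1 count. Endothelial markers, 4 of 7 in the table, summed to 27.6 CPM in knockdown cells with imatinib, 42.4 CPM in scramble cells with imatinib, 29.7 CPM in knockdown cells and 46.9 CPM in scramble cells, nearly all of it PECAM1 (edgeR knockdown adjusted p = 3.71e-05), with KDR at 2 counts or fewer. The part of these markers in the results on SPARC, COL1A1 and the other matrix and integrin genes was not tested.

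FN1 (ENSG00000115414.18; GRCh38 chromosome 2, 215360440 to 215436172), which encodes fibronectin, stood out in 1 library. It had 59.6 CPM in knockdown cells with imatinib, 25.3 CPM in scramble cells with imatinib, 33.1 CPM in knockdown cells and 30.3 CPM in scramble cells. The knockdown library with imatinib lay far above the other libraries, and the untreated pair differed little. The ratio of knockdown over scramble was 2.39-fold (2.21 to 2.60) under imatinib and 1.10-fold (1.01 to 1.20) without it. The difference of the log2 ratios was 1.12 (0.95 to 1.29, counting error only); it is part of what FN1 was chosen for and was not tested.

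EMILIN2 (ENSG00000132205.10; GRCh38 chromosome 18, 2847030 to 2915993), an elastin microfibril interface protein, also stood out in 1 library, but in the other knockdown library. It had 4.13 CPM in knockdown cells with imatinib, 3.34 CPM in scramble cells with imatinib, 9.30 CPM in knockdown cells and 3.47 CPM in scramble cells. The knockdown library without the drug was above the others, whose counting intervals overlapped. The ratio was 1.25-fold (0.966 to 1.62) under imatinib and 2.67-fold (2.16 to 3.38) without it, a difference of log2 ratios of -1.10 (-1.58 to -0.62). FN1 and EMILIN2 thus differed between the pairs in opposite directions, whereas SPARC did not within counting error.

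**Figure D1:**
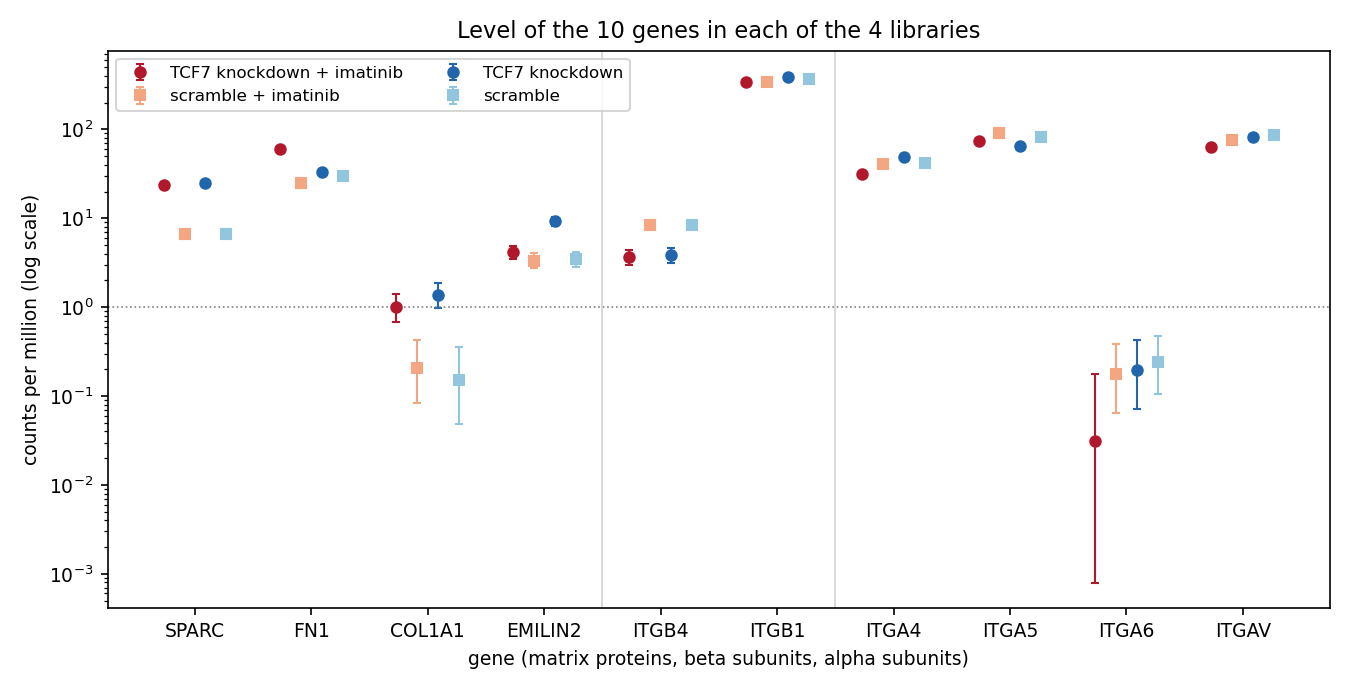
CPM (log scale) of the 10 genes in each library, with TCF7 knockdown as circles and scramble as squares, and the 95% Poisson interval of the count as bars. SPARC and COL1A1 are higher and ITGB4 lower in both knockdown libraries, FN1 is highest at 59.6 CPM in knockdown cells with imatinib and EMILIN2 at 9.30 CPM in knockdown cells, and the dotted line is the filter at 1 CPM.

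ITGB4 (ENSG00000132470.13; GRCh38 chromosome 17, 75721328 to 75757818), the beta subunit of the laminin receptor of hemidesmosomes, was the only one of these genes at 2-fold or more below scramble in both pairs. It had 3.62 CPM in knockdown cells with imatinib, 8.42 CPM in scramble cells with imatinib, 3.82 CPM in knockdown cells and 8.39 CPM in scramble cells. Both knockdown libraries were below both scramble libraries, whatever the drug. Knockdown cells held 44.0% (34.8% to 54.3%) of the scramble level under imatinib and 46.2% (36.6% to 57.0%) without it, and the difference of the log2 ratios was -0.07 (-0.51 to 0.37).

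ITGA6 (ENSG00000091409.14; GRCh38 chromosome 2, 172427354 to 172506282), the known partner of ITGB4, was almost absent. It had 1 count in knockdown cells with imatinib, 6 in scramble cells with imatinib, 6 in knockdown cells and 8 in scramble cells, at most 0.241 CPM (0.104 to 0.476). It is the only member that did not pass the filter, and no difference between the libraries was detectable at this depth. Antisense genes overlap its exons, of which AC078883.1 had 60 to 76 counts per library, more than ITGA6 itself.

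ITGB1 (ENSG00000150093.18; GRCh38 chromosome 10, 32900319 to 33005792), the common beta subunit, was the most abundant member. It had 338 CPM in knockdown cells with imatinib, 344 CPM in scramble cells with imatinib, 391 CPM in knockdown cells and 372 CPM in scramble cells. The ratio of knockdown over scramble was 0.997-fold (0.971 to 1.02) under imatinib and 1.06-fold (1.03 to 1.09) without it. The counting intervals of ITGB1 and ITGB4 lay apart in both pairs, but ITGB4 was chosen for its low ratio, so nothing is read from this.

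The alpha subunits that passed the filter had ratios under 1.5-fold in either direction. ITGA5 (ENSG00000161638.10; GRCh38 chromosome 12, 54395261 to 54419460), of the main fibronectin receptor, had 74.5 CPM in knockdown cells with imatinib, 91.9 CPM in scramble cells with imatinib, 65.5 CPM in knockdown cells and 82.5 CPM in scramble cells. Both knockdown libraries were below both scramble libraries, at 0.821-fold (0.778 to 0.867) under imatinib and 0.799-fold (0.753 to 0.846) without it. ITGAV (ENSG00000138448.11; GRCh38 chromosome 2, 186590065 to 186680901), which binds vitronectin and fibronectin with several beta subunits, had 63.3 CPM in knockdown cells with imatinib, 76.2 CPM in scramble cells with imatinib, 81.2 CPM in knockdown cells and 87.3 CPM in scramble cells. Its ratios were 0.843-fold (0.794 to 0.893) under imatinib and 0.936-fold (0.886 to 0.987) without it, and the knockdown library without imatinib lay above the scramble library with it. ITGA4 (ENSG00000115232.13; GRCh38 chromosome 2, 181457202 to 181536187), of the receptor that binds VCAM1 and fibronectin, had 31.2 CPM in knockdown cells with imatinib, 40.7 CPM in scramble cells with imatinib, 48.4 CPM in knockdown cells and 42.4 CPM in scramble cells. Its ratio was 0.779-fold (0.717 to 0.845) under imatinib and 1.15-fold (1.07 to 1.24) without it. The knockdown libraries were thus the lowest and the highest, and the scramble libraries lay between them.

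Of the 9 members that passed the filter, 3 were 2-fold or more higher with knockdown under imatinib (SPARC, FN1 and COL1A1), against 1.32% of the 13296 genes that passed, and 1 was 2-fold or more lower (ITGB4), against 1.51%; in either direction 2.83% of genes were past 2-fold. Without imatinib 3 were higher (SPARC, COL1A1 and EMILIN2), against 0.925% of genes, and 1 was lower (ITGB4 again), against 1.75%, with 2.68% of genes past 2-fold in either direction. The choice of the genes and, for COL1A1, the filter fixed part of these counts, and nothing is read from them.

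**Figure D2:**
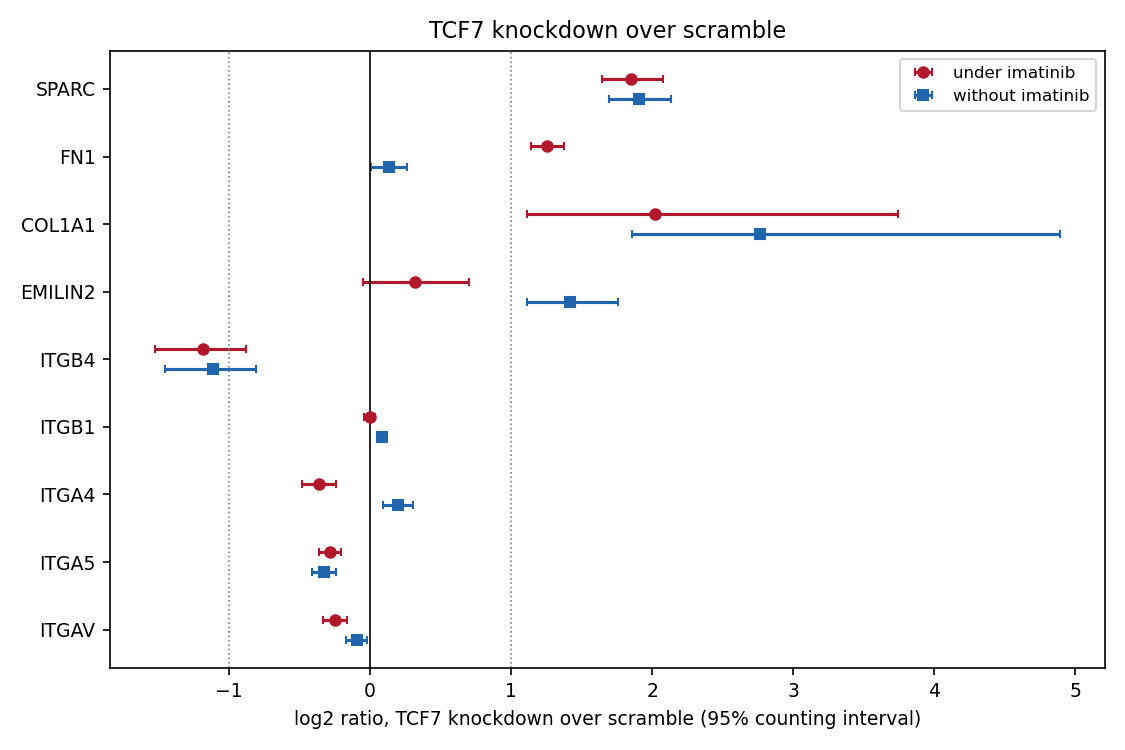
The log2 ratio of TCF7 knockdown over scramble for the 9 genes that passed the filter, under imatinib (circles) and without it (squares), with 95% counting intervals as bars and 2-fold as dotted lines. SPARC (1.85 and 1.90) and ITGB4 (-1.18 and -1.11) keep their ratio in both pairs, while FN1 (1.26 and 0.14) and EMILIN2 (0.32 and 1.42) differ between the pairs.

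The levels of different genes were compared on the authors' deposited FPKM values, which divide counts by exon length. This length exceeds that of the longest transcript unevenly, with 17315 against 9171 bases for FN1, 7901 against 4189 for ITGA4 and 4831 against 3701 for SPARC. The places below hold for the exon length only, and genes with near values may change places with another length. ITGB1 was first in every library, at 56.2, 57.2, 65.1 and 61.8 FPKM in knockdown cells with imatinib, scramble cells with imatinib, knockdown cells and scramble cells. ITGA5 and ITGAV came next, at 9.83 and 7.72 FPKM in knockdown cells with imatinib, and their counting intervals overlapped in scramble cells, where they had 10.9 and 10.6 FPKM. In knockdown cells without imatinib ITGAV came before ITGA5, at 9.89 against 8.65 FPKM. ITGA4 was at 3.96, 5.15, 6.13 and 5.37 FPKM in the same order of libraries. SPARC had place 4 of the 10 in knockdown cells with imatinib, at 4.96 FPKM, place 6 in scramble cells with imatinib, at 1.38 FPKM, place 5 in knockdown cells, at 5.19 FPKM, and place 6 in scramble cells, at 1.39 FPKM. In both scramble libraries its interval overlapped that of ITGB4. FN1 had 3.44, 1.46, 1.91 and 1.75 FPKM in the same order of libraries, and the lowest places went to COL1A1 and ITGA6 at 0.140 FPKM or less.

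Imatinib was not used to choose the genes, apart from FN1, and its effect over both hairpins was tested in edgeR for 8 of them, leaving out FN1 and the unmeasured ITGA6. This test sets the libraries with imatinib against those without, in a design with a term for the hairpin. Its error comes from how far the pairs disagree, shared across genes by a prior worth 33.7 degrees of freedom beside 1 from each gene, so its p-values measure only the spread between these libraries. Of the 8 genes 0 rose, where 13.8% of all tested genes did, and 2 fell, ITGAV and ITGA4, where 7.08% did (20.9% in either direction). ITGAV had log2 ratios of imatinib over no imatinib of -0.36 (-0.45 to -0.28) in knockdown cells and -0.21 (-0.29 to -0.13) in scramble cells and was lower in both pairs (fitted log2 fold change -0.29 with an SE of 0.0811, edgeR adjusted p = 0.0113). ITGA4 had -0.64 (-0.75 to -0.52) in knockdown cells and -0.08 (-0.18 to 0.03) in scramble cells (fitted log2 fold change -0.35 with an SE of 0.108, edgeR adjusted p = 0.0179), so the ratio was larger in the knockdown pair.

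The ratios of imatinib over no imatinib went with GC content across genes in these libraries, with a Spearman correlation of 0.75 in knockdown cells and 0.68 in scramble cells over 10095 genes, which share their libraries and are no replicates. ITGAV, with a GC content of 38.3%, was not called with GC and length offsets (log2 fold change -0.11, edgeR adjusted p = 0.417), and DESeq2 did not call it either (adjusted p = 0.074). ITGA4, with 44.1%, kept its call with the offsets (-0.27, edgeR adjusted p = 0.0463) and not in DESeq2 (adjusted p = 0.129). Limma on the deposited FPKM called neither ITGAV nor ITGA4. Neither was called in any of the 4 fits that leave out 1 library. Those fits have no term for the hairpin and keep only 1 library with or without imatinib, so they cannot show whether either call holds. ITGB4, with a GC content of 63.7%, was not called in either fit, with a log2 fold change of -0.04 as counted and -0.51 with the offsets (edgeR adjusted p = 0.910 and 0.146).

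EMILIN2 was just outside the threshold for imatinib (log2 fold change -0.66, SE 0.248, edgeR adjusted p = 0.0555). It was inside it with the offsets (-0.85, edgeR adjusted p = 0.0123) and with DESeq2 size factors in edgeR (adjusted p = 0.0349). The DESeq2 test did not call it, nor did limma on the deposited FPKM. Its log2 ratios were -1.17 (-1.49 to -0.87) in knockdown cells and -0.07 (-0.46 to 0.32) in scramble cells, and of the 9 members that passed the filter it alone was at 2-fold or more with imatinib, in knockdown cells, where 1.07% of genes were 2-fold lower, 2.64% higher and 3.71% either; in scramble cells 0 of 9 were past 2-fold, against 1.31% of genes. The other members were not called. SPARC had -0.07 in knockdown cells and -0.02 in scramble cells, ITGB4 -0.08 and -0.01, ITGB1 -0.22 and -0.13 (edgeR adjusted p = 0.0714), ITGA5 0.18 and 0.14 (edgeR adjusted p = 0.1498), and COL1A1 -0.43 and 0.32. FN1, untested, had 0.84 (0.73 to 0.96) in knockdown cells and -0.28 (-0.41 to -0.14) in scramble cells.

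**Figure D3:**
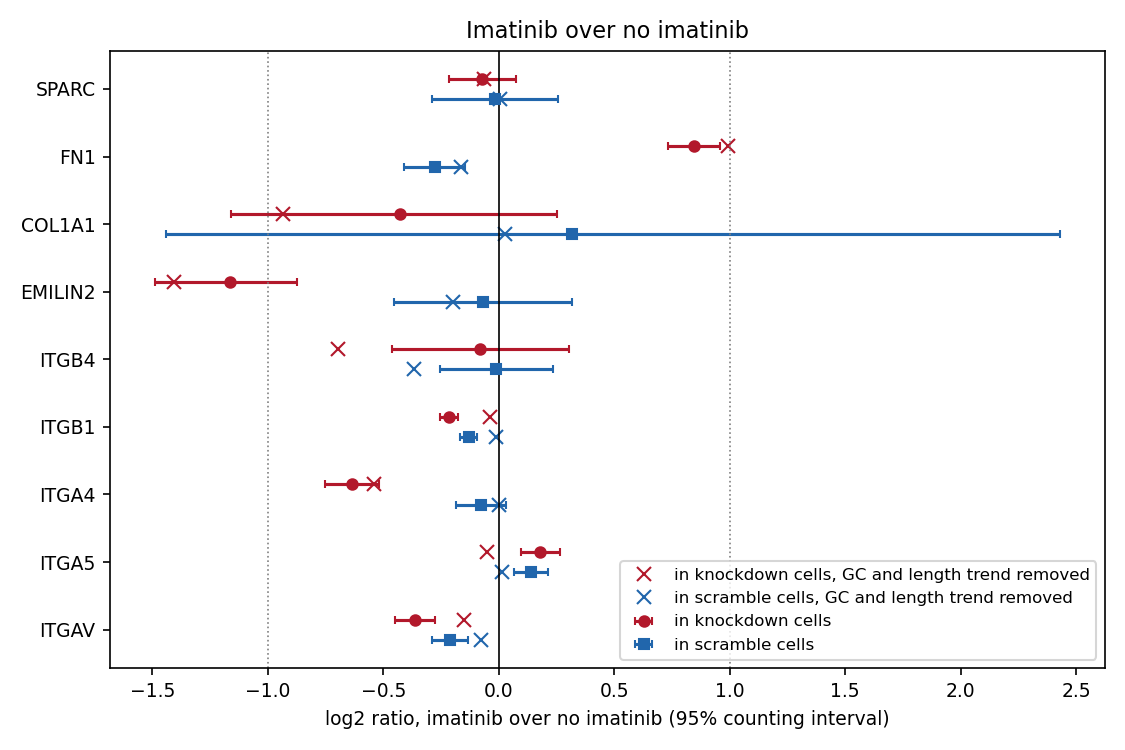
Log2 ratios with over without imatinib for the 9 genes, in knockdown cells (circles) and scramble cells (squares) with 95% counting intervals, and the same after removal of the trend with GC content and length (crosses). EMILIN2 (-1.17) and FN1 (0.84) differ most from 0 in knockdown cells, and the crosses of ITGB1, ITGA5 and ITGAV lie nearer to 0 than their symbols. In knockdown cells the crosses of FN1, COL1A1, EMILIN2 and ITGB4 lie further from 0, for ITGB4 at -0.70 against -0.08.

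Other matrix and adhesion genes were taken from 8 lists with 229 names, of which 221 were in the table and 105 passed the filter. With knockdown over both drug states 6 rose and 12 fell (5.71% and 11.4%, against 3.8% and 3.34% of all tested genes, of which 7.14% were called in all), and 87 were not called. Their median log2 ratio was 0.15 under imatinib and -0.07 without it, against 0.02 and 0.0002 for all tested genes. The ratios under imatinib went with GC content across genes (Spearman 0.37 over 10095 genes), and those without it had a Spearman correlation of -0.11. DESeq2 called 1 higher and 5 lower, and with GC and length offsets edgeR called 11 higher and 14 lower. Without a term for the drug edgeR called 0, with 15 at an unadjusted p under 0.05. Leaving out 1 library, edgeR called 7 without knockdown with imatinib, 2 without scramble with imatinib, 16 without knockdown and 1 without scramble. Of the 15 genes named below, TNS4 was called in each of these 4 fits, DAB2, P4HA1 and COLGALT2 in 2 each, and ITGAM, ITGB5, PLOD1, ADAM10, ADAM9 and CD63 in 0. DESeq2 called 6 of the 15 (TNS4, DAB2, LAMA5, COLGALT2, PLOD1 and SERPINH1), and not P4HA1 (adjusted p = 0.0581), ADAM10, CTSB, ADAM9, MMP17, CD151 and CD63 (adjusted p between 0.0581 and 0.848), nor the integrins ITGAM and ITGB5.

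Among the other integrins 8 passed the filter. ITGAM, the alpha subunit of the complement receptor of myeloid cells, rose, with 102 counts in knockdown cells with imatinib, 45 in scramble cells with imatinib, 113 in knockdown cells and 65 in scramble cells (log2 ratios 1.26 under imatinib and 0.90 without, given in this order for the genes that follow, edgeR adjusted p = 0.0279). ITGB5, a partner of ITGAV, fell, with 72 counts in knockdown cells with imatinib, 158 in scramble cells with imatinib, 63 in knockdown cells and 142 in scramble cells (-0.99 and -1.03, edgeR adjusted p = 0.0161). Both knockdown libraries lay on the same side of both scramble libraries for each gene. Neither was called by DESeq2 (adjusted p = 0.367 and 0.28).

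Of 20 integrin activators and adaptors 2 fell and 0 rose. TNS4, of the tensin family, had 15 counts in knockdown cells with imatinib and 252 in scramble cells with imatinib. Without imatinib it had 66 in knockdown cells and 292 in scramble cells. Its log2 ratios were -3.78 under imatinib, the lowest of the 105 genes there, and -1.99 without it (edgeR adjusted p = 4.12e-08). DAB2, an endocytic adaptor of integrins, had -0.70 and -0.60 (edgeR adjusted p = 4.77e-07).

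Of 19 genes for the processing of collagen 4 fell and 1, which encodes a chaperone, rose. P4HA1, a prolyl hydroxylase, had log2 ratios of -1.12 under imatinib and -0.60 without (edgeR adjusted p = 7.13e-09), COLGALT2, a galactosyltransferase, -1.08 and -1.39 (5.03e-08), and PLOD1, a lysyl hydroxylase, -0.48 and -0.35 (0.000332). SERPINH1, the collagen chaperone HSP47, rose with 0.54 and 0.31 (edgeR adjusted p = 0.00115). Of 7 other collagen chains that passed 0 were called, and of 15 other matrix glycoproteins LAMA5, a laminin chain, fell (-0.46 and -0.60, edgeR adjusted p = 0.000133).

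Among 15 proteases and inhibitors 2 rose and 4 fell. The sheddases ADAM10 (-0.27 and -0.33, edgeR adjusted p = 0.00705) and ADAM9 (-0.32 and -0.28, edgeR adjusted p = 0.00855) fell and CTSB, a lysosomal protease, rose (0.50 and 0.16, edgeR adjusted p = 0.00757). MMP17 fell through 1 library, with 114 counts in knockdown cells with imatinib, 146 in scramble cells with imatinib, 18 in knockdown cells and 140 in scramble cells; without the knockdown library its log2 fold change was -0.24 (edgeR adjusted p = 0.775), against -1.28 (edgeR adjusted p = 0.0257) with all libraries. Of 21 other adhesion receptors and tetraspanins 2 rose, CD151 (0.35 and 0.47, edgeR adjusted p = 0.0106) and CD63 (0.32 and 0.19, edgeR adjusted p = 0.0222), both tetraspanins that associate with integrins.

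**Figure D4:**
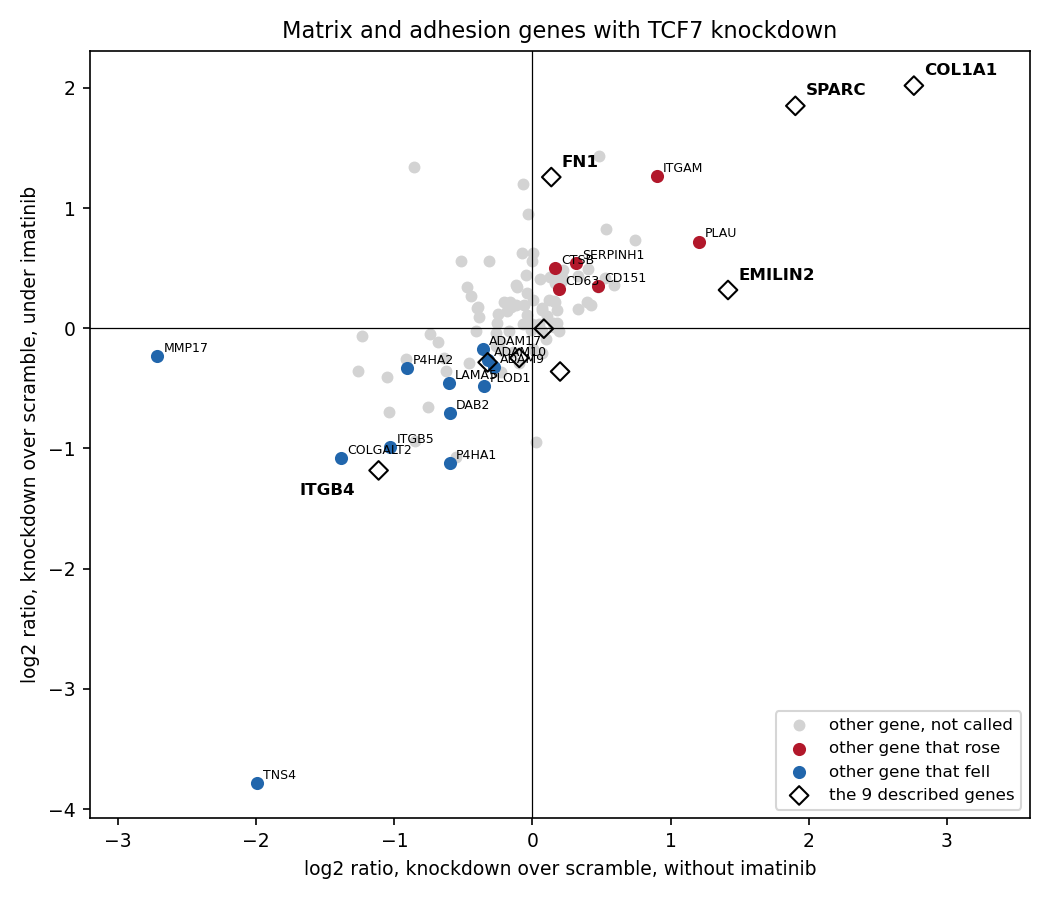
The log2 ratio of knockdown over scramble without imatinib (horizontal axis) and under imatinib (vertical axis) for the 105 other matrix and adhesion genes as dots, coloured where edgeR called them over both drug states, and for the 9 described genes as diamonds. TNS4 (-1.99 and -3.78) lies lowest, and SPARC (1.90 and 1.85) and COL1A1 (2.76 and 2.02) lie at the upper right.

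With imatinib, 31 of the 105 rose and 3 fell (29.5% and 2.86%, against 13.8% and 7.08% of all tested genes), with medians of 0.33 in knockdown cells and 0.11 in scramble cells against 0.01 and -0.01. With GC and length offsets 4 rose and 4 fell, and leaving out 1 library gave 17 calls without scramble with imatinib and 0 without any of the others, where 17 to 28 genes had an unadjusted p under 0.05. FERMT3, the kindlin of blood cells that activates integrins, had log2 ratios of 1.01 in knockdown cells and 0.44 in scramble cells (edgeR adjusted p = 2.07e-06), and was among those still called with the offsets. EMILIN1, the family member of EMILIN2, had 1.04 and 0.78 (edgeR adjusted p = 2.44e-06), AGRN 0.73 and 0.59 (1.4e-06) and FLNC 0.74 and 0.32 (1.04e-05), at a GC content of 62.3% to 67.6%, and none of these was called with the offsets. Also risen were COL18A1, COL4A2, ADAM15, ADAM8, CD81, CD151 and SERPINH1, which the offsets did not call, and P4HA1 fell (-0.88 and -0.35, edgeR adjusted p = 5.85e-06).

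The genes nearest to SPARC, ITGB4 and FN1 were sought by the Euclidean distance between centred log2 CPM over the 4 libraries. The search took in 9368 protein-coding genes that averaged at least 5 CPM. The distances rest on 4 libraries and on the values by which SPARC, ITGB4 and FN1 were chosen, so nothing is read from their size. Nearest to SPARC were SLAMF6 (distance 0.29), TRANK1 (0.33) and PLXNA2 (0.35). Nearest to ITGB4 were SLC1A4 (0.0278), IGF1R (0.0729) and JAG1 (0.0901), and JAG1 had 3.78 CPM in knockdown cells with imatinib, 8.53 CPM in scramble cells with imatinib, 4.18 CPM in knockdown cells and 8.48 CPM in scramble cells. Near to FN1 were MYO1F (0.27) and PTPRJ (0.28), and MYO1F had 28.7 CPM in knockdown cells with imatinib, 15.8 CPM in scramble cells with imatinib, 18.9 CPM in knockdown cells and 17.1 CPM in scramble cells.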

How the data were processed

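RNA of 4 cultures, 1 per group, was depleted of ribosomal RNA and made into stranded libraries, per the labels' protocols. Per the submitters' processing notes, FastQC, HISAT2 and HTSeq 0.6.1 were used with GRCh38, with strand option and annotation not given in the sources used here. Per the file headers, the deposited table holds a whole-number count, an FPKM value and the log2 of 1 plus FPKM for each of 28482 genes and 4 libraries. The deposited FPKM columns are treated as a score, since 6 genes have negative values; each value is the count scaled by the library total and a whole number per gene (tolerance 0.001), equal to the GENCODE 29 exon length for 26660 genes and for all members. The log2 columns the authors deposited were not used.

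The filter of 1 CPM in 2 libraries left 13296 genes. CPM values are counts-per-million of the library total. Log2 ratios use TMM scaling and a prior count of 2; folds are the same values on the linear scale. Their 95% intervals are exact binomial, those of CPM exact Poisson, and both cover counting error only. With 1 library per group a ratio has no replicate check and no p-value. Over 2 libraries against 2, edgeR 4.0.16 (R 4.3.3; quasi-likelihood, additive in hairpin and drug, Benjamini-Hochberg over all kept genes, called at 0.05) was used, after it was tested on simulated data. The simulated counts had no effect of the drug, no difference between the pairs and no trend with GC content, so the calls were not checked under these. Rose and fell are used only for called genes. Alternatives were DESeq2 1.42.0, limma 3.58.1 on log2 of FPKM plus 0.1, other scalings, filters and prior counts, removal of a smooth trend over transcript GC content and length (mgcv 1.9.3), and leaving out libraries.

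Members, gene lists and rules were chosen with earlier results of these data known. Named were all members, TCF7, up to 4 genes per list called for knockdown and up to 2 for imatinib by adjusted p, the 2 most abundant markers per marker list, and the 3 genes nearest in pattern to SPARC, ITGB4 and FN1, of which 1 is not reported here; COL1A2 and the genes named beside the marker sums were added after their values were seen.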

Additional observations from a re-analysis of the deposited data

Results flagged for a closer look

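For 2 genes the pairs of libraries lay on opposite sides of 0, each with a counting interval that excluded 0; neither difference was tested. FN1 had log2 ratios of imatinib over no imatinib of 0.84 in knockdown cells and -0.28 in scramble cells. ITGA4 had log2 ratios of knockdown over scramble of -0.36 under imatinib and 0.20 without it.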

How the results depend on the processing

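The log2 knockdown ratios of SPARC, FN1 and ITGB4 were also computed with the scaling, filter, prior count, FPKM and trend alternatives. For SPARC they lay between 1.77 and 1.86 under imatinib and between 1.83 and 1.92 without it. In the same order they lay between 1.19 and 1.32, and 0.12 and 0.16, for FN1. Those of ITGB4 lay between -1.35 and -1.08, and -1.13 and -1.01. All these alternatives reuse the counts by which the genes were chosen. The unchanged direction is therefore no check of the ratios and cannot show whether they would hold in other cultures. Counts of called genes depended on the tool and the error model, and the cause was not tested. For knockdown, 949 genes (18 of the other matrix and adhesion genes) were called by edgeR, 1603 (25) with GC and length offsets, 272 (6) by DESeq2, 195 (5) by limma and 0 (0) without the term for the drug, where 818 genes (15) had an unadjusted p under 0.05. For imatinib, 2780 (34) were called by edgeR, 599 (8) with the offsets, 1003 (16) by DESeq2, 1094 (15) by limma and 0 (0) without the term for the hairpin, where 2651 (30) had an unadjusted p under 0.05. Leaving out each library in turn, in the fit without the other term and with the lone library assumed to vary like the others, gave 24 to 746 genes (1 to 16) for knockdown and 0 to 848 (0 to 17) for imatinib. Imatinib fold changes that turned were those of ITGA5 (-0.018), COL18A1 (-0.025), COL4A2 (-0.019) and CD81 (-0.040) with the offsets, and, with a library left out, of SPARC (-1.25 to 1.19), COL1A1 (-1.20 to 0.42), EMILIN2 (-1.33 to 0.10) and ITGB4 (-0.75 to 0.64), where hairpin and drug are no longer balanced. No replicate block could be fitted because each group had 1 library. Pairs of the same hairpin or drug state enter through the additive terms. Depth limits ITGA6 and COL1A1.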
